A study of Mus musculus with 5 samples.

Results

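The 7 genes of MHC class II antigen presentation described here, H2-Aa, H2-Ab1, H2-Eb1, Cd74, H2-DMa, H2-DMb1 and Ciita, were taken by symbol from 41028 gene names in single-cell RNA sequencing of mouse mammary tumours. All 7 had UMIs in the macrophage cells of every library. A UMI, or unique molecular identifier, marks 1 captured RNA molecule, so UMIs count molecules. The tumours came from PyMT mice, in which the polyoma virus middle T antigen is expressed in mammary epithelium and tumours form from it. The labels give no strain, age, sex or promoter, and no group without the transgene is analysed here. The study compared the 10x Genomics Chromium 3' v2 system, which captures cells in droplets, with the BD Rhapsody whole transcriptome assay, which captures them in microwells. Fresh digests on 10x gave 2 samples (fresh 10x 1 and fresh 10x 2). A digest kept overnight at 4 °C, titled 24 h, gave 1 sample (stored 10x), and a fresh digest on BD Rhapsody gave 1 sample (BD 1). The last sample (BD 2) is titled fresh while its matrix is named for 24 h, so it was kept apart and no storage state was assumed for it. The libraries held 15958 cells in all and between 29166129 and 59957945 UMIs, and "in library order" below means fresh 10x 1, fresh 10x 2, stored 10x, BD 1 and BD 2. The labels do not say whether the fresh 10x samples came from separate animals, so p-values measure the spread between these samples, which may be technical. Of the 10 pairs of libraries, 4 shared cell barcodes, with 24 shared between BD 1 and BD 2 and at most 5 in any other pair.

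MHC class II molecules carry peptides from ingested proteins to the cell surface and show them to CD4+ T cells, and macrophages, dendritic cells and B cells are the cells best known for them. H2-Aa and H2-Ab1 encode the alpha and beta chains of the I-A molecule, and H2-Eb1 encodes the beta chain of the I-E molecule. Cd74 is the invariant chain, which escorts the new molecule and fills its groove until a fragment of it is exchanged for peptide by H2-DM, a dimer of the H2-DMa and H2-DMb1 products. Ciita is the transactivator that switches these genes on. It binds no DNA itself and is recruited by factors on the X and Y boxes of their promoters.

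In the GENCODE vM21 annotation of GRCm38, 5 of the members lie together on chromosome 17. They are H2-DMa at chr17:34119541-34139101, H2-DMb1 at chr17:34153072-34160230, H2-Ab1 at chr17:34257689-34269419, H2-Aa on the minus strand at chr17:34282744-34287823 and H2-Eb1 at chr17:34305867-34316674. H2-DMb1 has a near-identical neighbour, H2-DMb2, at chr17:34143307-34151555, and reads of this pair could have been split by the authors' counting, so both are uncertain to that extent. Ciita lies on chromosome 16, at chr16:10480059-10528418.

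RefSeq promoters on GRCm38.p6, 250 bases before to 50 after a gene's start, were found for 4 of the 7 members. The stretches below are those of 2 chain genes that hold the Y box core GATTGG, shown because Ciita acts through this element; capitals mark GATTGG and, where present, the X box letters AACNGATG. The H2-Aa stretch is on the minus strand at chr17:34287857-34287917 and the H2-Eb1 stretch on the plus strand at chr17:34305762-34305822.
H2-Aa: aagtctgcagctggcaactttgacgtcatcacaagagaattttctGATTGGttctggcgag
H2-Eb1: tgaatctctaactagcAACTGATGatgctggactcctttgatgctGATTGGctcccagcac
GATTGG begins 49 bases before the start of H2-Aa and 60 before that of H2-Eb1. On either strand it was found in 16.1% of 32851 promoters and AACNGATG in 2.32%, and the motifs do not overlap each other. Both, in this order on the gene's strand within 60 bases, were found in 8 promoters, or 0.0244%, which include those of H2-Eb1, H2-DMb1, H2-DMb2 and H2-Eb2. The others were those of BC051142, G3bp2, Gm35444 and Scgb2b20, so the match is not confined to class II genes. The H2-Aa window held no AACNGATG, and of the 2 windows of H2-DMa 1 held GATTGG and neither held AACNGATG. These are matches of letters, not measured sites.

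Cells were sorted into types by marker gates that use none of the 7 genes. Cells with at least 1000 UMIs were kept, 15736 of 15958. A macrophage needed 2 of the complement genes C1qa, C1qb and C1qc at 10 or more UMIs per 10000, and there were 38, 62, 114, 166 and 160 such cells in library order. A dendritic cell needed 2 of Flt3, Xcr1, Clec9a, Cd209a, Zbtb46, Ccr7 and Ccl22, and only 1, 9, 1, 18 and 16 cells met this. An epithelial cell needed 3 of Epcam, Krt8, Krt18 and Krt19 and at most 1 of 5 immune genes, which left 1347, 1353, 2837, 2626 and 2763 cells. A fibroblast needed 2 of Pdgfra, Dpt and Lum, and a T cell 2 of Cd3d, Cd3e and Cd3g, without this limit on immune genes. Other markers fitted the gate names: 7 macrophage genes outside the gate (Csf1r, Adgre1, Mrc1, Cd68, Lyz2, Ms4a7 and Fcgr3) summed to between 85.7 and 124 UMIs per 10000 in macrophages and at most 0.153 in epithelial cells. Of 9 dendritic genes outside the gate, the sum was 48.2, 56.6 and 58.6 in the dendritic cells of fresh 10x 2, BD 1 and BD 2 and at most 10.1 in macrophages. The dendritic gate of these libraries also held 1.71, 11.5 and 6.96 UMIs per 10000 of the macrophage genes and 4.75, 10.9 and 9.36 of 4 monocyte and neutrophil genes. The B cell genes Pax5 and Fcmr were at 0 in the macrophage and dendritic gates, and the B cell gate, with at most 7 cells in a library, was not used. The single dendritic cells of fresh 10x 1 and stored 10x are left out of what follows, and the cell of fresh 10x 1 had no UMI of any of the 9 dendritic genes. Levels are given as UMIs per 10000 UMIs of the pooled cells of a gate, and because a UMI counts a molecule once, they were not divided by gene length.

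Macrophages were the main source of class II RNA in these tumours. The 7 genes together made up 328 to 511 of every 10000 UMIs in macrophages, and this gate held 64.6%, 53.2%, 73.2%, 77.0% and 75.1% of all UMIs of the members in library order. Epithelial cells, although they were most of the cells, held 1.94% to 5.40%, at 0.227 to 0.485 UMIs per 10000.

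Cd74 had the highest level of the 7 in the macrophages of every library. Its UMIs per 10000 were 207, 222, 284, 172 and 234 in library order, with a mean of 214.7 ± 10.4 (SD, n = 2) in fresh 10x. H2-Ab1 followed in the 3 10x libraries, at 63.5, 77.3 and 85.5, with 113 in BD 1 and 127 in BD 2. For H2-Aa the levels were 47.5, 46.6, 66.2, 118 and 142, so that it was below H2-Ab1 in every 10x library and above it in both BD Rhapsody libraries.

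The other chain gene, H2-Eb1, was much lower, at 0.812, 1.07, 1.16, 1.40 and 1.04 UMIs per 10000 in library order. H2-Ab1 thus outnumbered it with an H2-Eb1 to H2-Ab1 ratio of only 0.00818 to 0.0139. H2-Ea-ps, the alpha chain partner annotated as a pseudogene, and H2-Eb2, a further beta chain gene, were listed at 0 in the macrophages of all 5 libraries. The loading genes were between these extremes. H2-DMa stood at 4.78, 5.67, 4.48, 3.55 and 3.77, and H2-DMb1 at 3.33, 5.33, 4.35, 2.04 and 2.17. For both of them the BD Rhapsody libraries were the lowest of the 5, with no overlap with the 10x libraries. H2-DMb2, which may share reads with H2-DMb1, was highest there. It was at 1.45 in BD 1 and 1.66 in BD 2, against 0.897, 0.766 and 0.770 in the 10x libraries. Ciita had 0.598, 0.995, 0.849, 0.991 and 1.15 UMIs per 10000, a level near that of H2-Eb1, and the neighbours H2-Eb1 and Ciita were within the spread of the fresh 10x pair (0.942 ± 0.184 against 0.797 ± 0.281, SD, n = 2). The neighbours H2-DMa (5.22 ± 0.624) and H2-DMb1 (4.33 ± 1.42) did not differ beyond that spread either, whereas Cd74, H2-Ab1 and H2-Aa (47.1 ± 0.644) stood apart from their neighbours in fresh 10x.

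**Figure D1:**
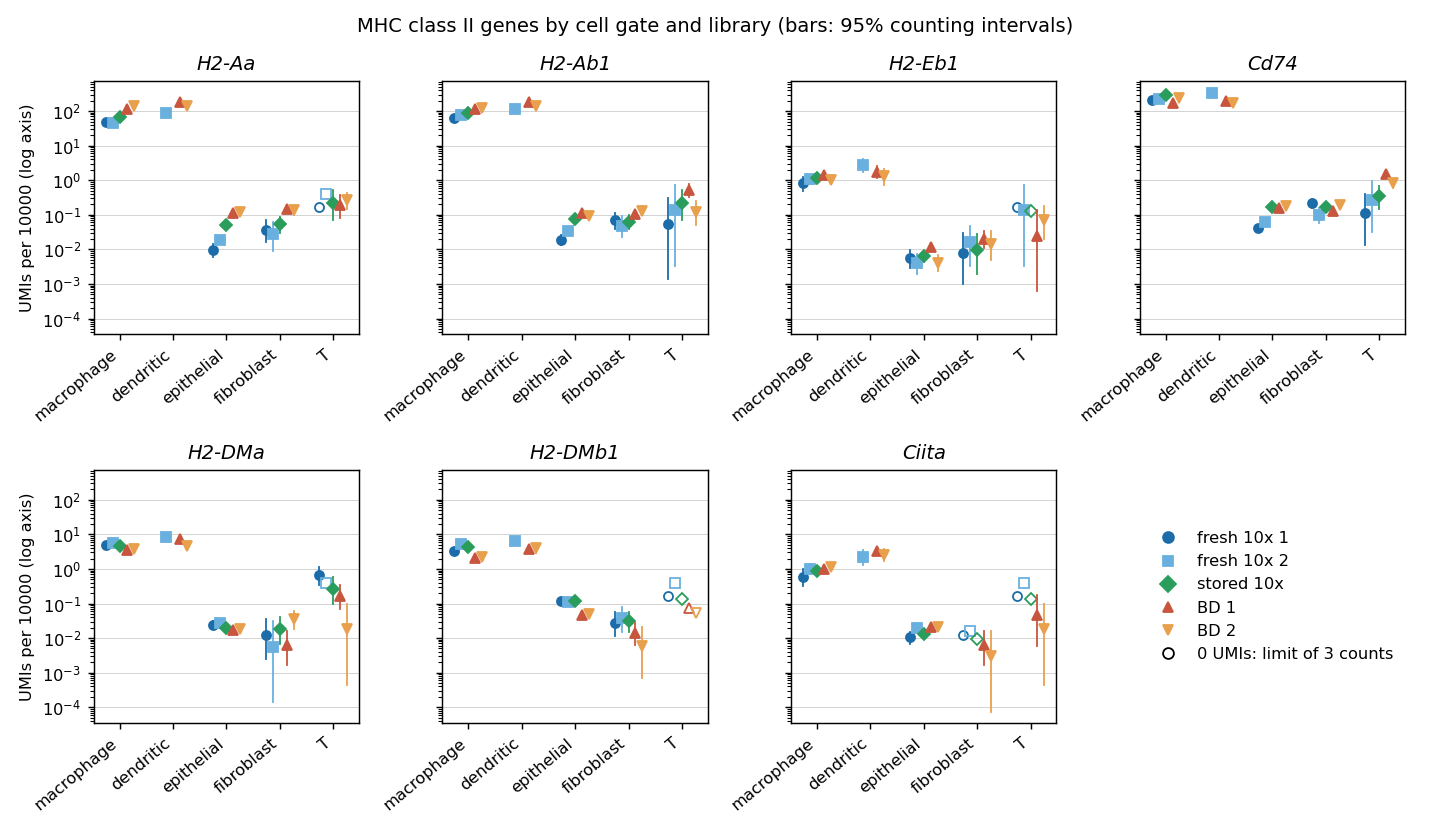
UMIs per 10000 of each member (log axis) in 5 gates, a point per library of at least 5 cells, with 95% Poisson intervals that cover counting error only and open points at the limit of 3 counts where no UMI was found. Macrophage and dendritic cells lie above the other gates for all 7 genes, with Cd74 highest and H2-Eb1 and Ciita lowest in macrophages. In T cells H2-DMa reached 14.0% (fresh 10x 1) and H2-Eb1 12.5% (fresh 10x 2) of the macrophage level. Both rest on very few molecules. The T cells held 15 UMIs of all 7 members in fresh 10x 1 (48 cells) and 4 in fresh 10x 2 (19 cells).

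Macrophages exceeded epithelial cells for all 7 genes, and in every library. The smallest differences were those of H2-DMb1 and Ciita. Cd74 had 0.0424, 0.0622, 0.172, 0.156 and 0.176 UMIs per 10000 in epithelial cells in library order, against at least 172 in macrophages, with a log2 fold change of 11.19 (SE 0.36, adjusted p = 7.7e-18 in edgeR). H2-Aa in epithelial cells was at 0.00966, 0.0188, 0.0508, 0.117 and 0.121, which rests on 23, 48, 231, 534 and 471 UMIs. Its log2 fold change, 10.85 (SE 0.33), was like that of H2-Ab1, 10.79 (SE 0.30). The log2 fold change was 7.91 (SE 0.18) for H2-DMa, 7.61 (SE 0.21) for H2-Eb1, 5.92 (SE 0.18) for Ciita and 5.49 (SE 0.15) for H2-DMb1. No macrophage level of a member overlapped with its epithelial levels. All 7 were called, where 30.0% of the 11510 genes tested were higher in macrophages, 34.1% lower and 64.1% called in either direction. The members' median log2 fold change was 7.91, beside -0.08 over all genes. Less RNA per cell and fewer expressing cells within a gate cannot be told apart in these pooled values.

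Most tested genes of peptide loading and of surface turnover were also higher in macrophages, while the regulators were mixed. Of 8 tested genes of peptide loading and assembly, 7 were higher and 0 lower, with Ctss, the protease that trims the invariant chain, at a log2 fold change of 11.03 (SE 0.27) and Lgmn, another lysosomal protease, at 7.15 (SE 0.18). H2-DMb2 was higher by 5.86 (SE 0.23) and Ctsb by 3.29 (SE 0.14). Of 8 tested genes of surface turnover and costimulation, 7 were higher, among them Cd83 (10.45), March1 (11.26), Cd86 (10.74) and Icosl (6.46), with edgeR adjusted p-values of at most 5.1e-18. March1 marks class II molecules for removal and Cd83 counters it. Among 14 regulators, 8 were higher and 2 lower: the interferon-gamma receptor genes Ifngr1 (3.12) and Ifngr2 (1.91) and the Y box factor gene Nfya (1.74) were among the higher, while Nfyc (-0.81) and Nfyb (-0.79), which encode the other subunits of that factor, were lower.

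Within epithelial cells the members did not keep the proportions they had in macrophages. H2-Aa in epithelial cells was 0.0203%, 0.0403%, 0.0767%, 0.0985% and 0.0857% of its macrophage level in library order. H2-Ab1 was at 0.0297% to 0.0980% and Cd74 at 0.0204% to 0.0907%. H2-DMa was at 0.447% to 0.492%, a narrow range, and H2-Eb1 at 0.365% to 0.839%. H2-DMb1 reached 3.50%, 2.14%, 2.77%, 2.35% and 2.24%, and Ciita 1.76%, 1.93%, 1.58%, 2.14% and 1.87%. So the epithelial share of H2-DMb1 and Ciita was above that of H2-Aa, H2-Ab1 and Cd74 in each library, with no overlap. The neighbour H2-DMb2 was at 1.12% to 4.45%.

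As a measure of macrophage RNA in the epithelial gate, 7 myeloid genes (Lyz2, Pf4, Mrc1, Ms4a7, Csf1r, Fcgr3 and Cybb) were summed in the same cells. Their sum was 0.0375%, 0.0463%, 0.102%, 0.0849% and 0.0525% of the macrophage sum in library order. H2-Aa, H2-Ab1 and Cd74 summed to 0.0223%, 0.0334%, 0.0690%, 0.0951% and 0.0781%, below the myeloid value in the 3 10x libraries and above it in both BD Rhapsody libraries. The epithelial values of H2-DMb1, 2.14% or more, were above every one of these sums. Single myeloid genes varied more than their sum, with Pf4 at 0.133% to 1.18% and Mrc1 at 0.118% to 0.786%. The other myeloid genes reached at most 0.235%. The range of Pf4 spans those of H2-DMa and H2-Eb1. In fibroblasts H2-Aa, H2-Ab1 and Cd74 summed to 0.0999%, 0.0502%, 0.0662%, 0.0943% and 0.0919% of the macrophage level, above the epithelial value in both fresh 10x libraries and BD 2 and below it in stored 10x and BD 1. The myeloid genes summed to 0.150% to 0.215% in fibroblasts, whose gate had no limit on immune genes. The part of free RNA or doublets in these values was not tested.

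**Figure D2:**
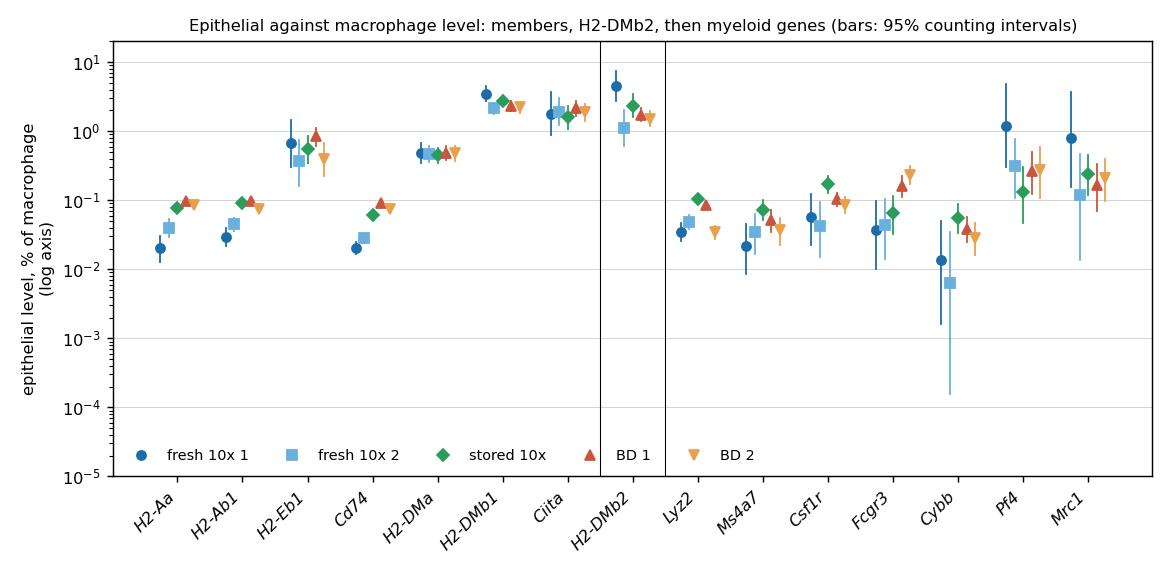
Epithelial level as a percent of the macrophage level of the same library (log axis) for the 7 members, H2-DMb2 and 7 myeloid genes, with 95% intervals for counting error. H2-DMb1 and Ciita lie between 1.58% and 3.50%, while H2-Aa, H2-Ab1 and Cd74 lie under 0.1%.

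Epithelial cells were next compared with fibroblasts, a type not known as a class II presenter that shares the same suspension; this comparison was chosen after the levels had been seen. H2-DMb1 had 0.117, 0.114, 0.121, 0.0480 and 0.0487 UMIs per 10000 in epithelial cells in library order, and 0.0282, 0.0380, 0.0310, 0.0141 and 0.00588 in fibroblasts. It was higher in epithelial cells within every library, with a log2 fold change of 2.02 (SE 0.22, adjusted p = 1.8e-05 in edgeR). Ciita had 25, 49, 61, 97 and 83 UMIs in epithelial cells, or 0.0105, 0.0192, 0.0134, 0.0212 and 0.0214 per 10000. In fibroblasts it had 0 UMIs in each 10x library, which allows up to 0.0121, 0.0163 and 0.0093 per 10000, and 4 and 1 UMIs in BD 1 and BD 2, or 0.00625 and 0.00294. Its log2 fold change was 2.82 (SE 0.57, edgeR adjusted p = 0.0013), a fitted value that depends on the prior count because 3 fibroblast sums are at 0. In fresh 10x 1 the epithelial level of Ciita was under the limit that the fibroblast count of 0 allows.

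The chain genes did not show this. The epithelial gate alone left out cells with 2 or more immune genes. Such cells held 3.78% to 11.4% of the members' UMIs of a library. The gates are thus not alike for genes high in immune cells, and the part of this in the values was not tested. H2-Eb1 was lower in epithelial cells by a log2 fold change of -1.03 (SE 0.40, adjusted p = 0.041 in edgeR), on 10 to 54 epithelial and 2 to 13 fibroblast UMIs a library, and lost its call when any 1 library was left out (adjusted p up to 0.14 over the 15 alternatives). H2-Aa (-0.33, SE 0.23), H2-Ab1 (-0.29, SE 0.27), Cd74 (-0.40, SE 0.34) and H2-DMa (0.50, SE 0.43) were not called. Of the 14739 genes tested 73.4% were called, 41.8% as higher and 31.5% as lower in epithelial cells, so 3 of 7 members is below the background share. In T cells H2-DMb1 had 0 UMIs in every library, with limits of 0.167, 0.403, 0.131, 0.0718 and 0.0534 per 10000 (3 counts a library). These limits lie above the epithelial levels in all 5 libraries, so no single library could show a difference from T cells at this depth. The T cells of the 5 libraries were not pooled for this comparison.

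Few UMIs stood behind each positive epithelial cell. A UMI of H2-Aa, H2-Ab1 or Cd74 was found in 11.1%, 18.8%, 31.2%, 40.3% and 37.0% of epithelial cells in library order. When each cell was thinned to 2000 UMIs, which 1335, 1337, 2679, 2626 and 2763 cells allowed, the shares were 1.59%, 2.78%, 6.34%, 7.497% and 8.02%. Fibroblasts at the same depth gave 5.57%, 3.06%, 5.54%, 7.32% and 9.05%, and T cells 2.35%, 4.18%, 10.7%, 18.2% and 14.7%, so the epithelial shares lay below those of T cells in all 5 libraries. They lay below the fibroblast share of the same library in fresh 10x 1, fresh 10x 2 and BD 2 and above it in stored 10x and BD 1. The limit on immune genes applied to the epithelial cells only. The median cell of these gates had 11274 to 13799.5 UMIs in epithelial cells, 11434 to 18670 in fibroblasts and 2265 to 5405 in T cells before thinning. Between 87.2% and 98.7% of the positive epithelial cells had 1 or 2 such UMIs, and the 10 cells with the most held 7.16% to 13.02% of them. The highest single cell had 48 UMIs, in BD 1. Across epithelial cells of a library the summed level of H2-Aa, H2-Ab1 and Cd74 had a Spearman rho of -0.009 to 0.039 with 16 interferon-induced genes, and H2-DMb1 of -0.02 to 0.115. These are descriptions of sparse counts.

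For H2-DMb1 the epithelial share was above the fibroblast share in every library. Thinned to the same depth, 2.60%, 2.77%, 2.74%, 1.12% and 1.19% of epithelial cells had an H2-DMb1 UMI in library order. In fibroblasts the shares were 0.458%, 0.646%, 0.588%, 0.295% and 0.0724%, lower in each library. No T cell had an H2-DMb1 UMI, but only 41, 14, 42, 65 and 102 T cells reached 2000 UMIs. Shares of this size were thus not detectable in the T cells of any single library, and the libraries were not pooled.

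The balance of the DM subunits differed between the types. H2-DMa UMIs were 1.44, 1.06, 1.03, 1.74 and 1.73 times those of H2-DMb1 in macrophages in library order. In epithelial cells this ratio was 0.201, 0.234, 0.166, 0.359 and 0.370, under every macrophage value. The ratio of H2-Aa to H2-Ab1 differed by platform instead: in macrophages it was 0.749, 0.604 and 0.775 in the 10x libraries and 1.05 and 1.12 in the BD Rhapsody libraries. Cd74 UMIs were 3.27, 2.87 and 3.32 times those of H2-Ab1 in the 10x macrophages and 1.52 and 1.85 times in BD 1 and BD 2.

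**Figure D3:**
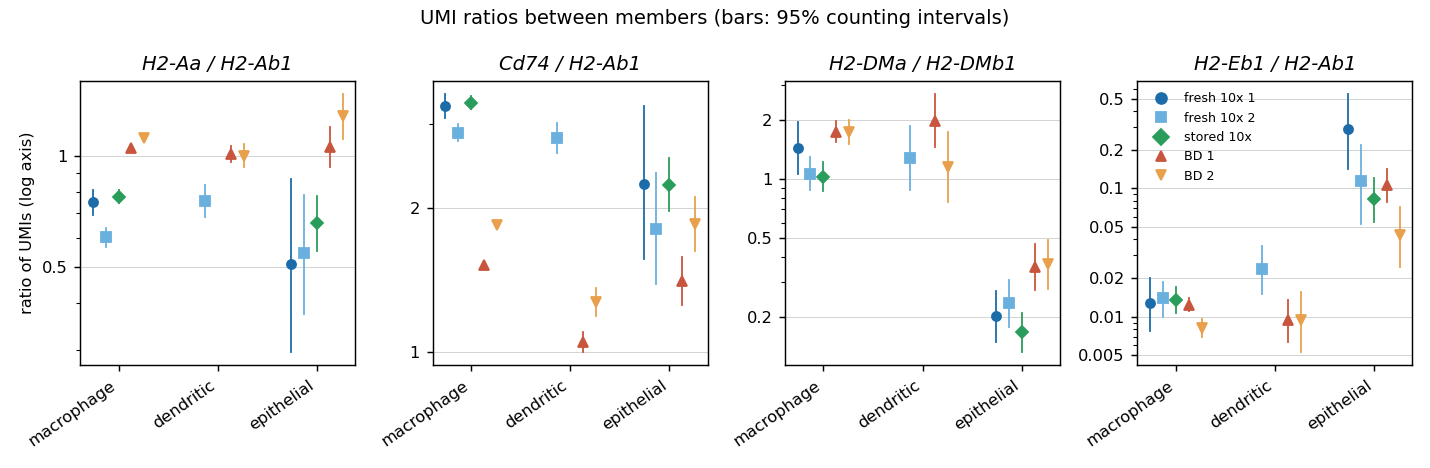
Ratios of UMIs between members (log axes) in the macrophage, dendritic and epithelial gates, a point per library with 95% intervals for counting error. H2-DMa to H2-DMb1 is above 1 in macrophages and under 0.4 in epithelial cells, while H2-Aa to H2-Ab1 and Cd74 to H2-Ab1 split by platform in macrophages.

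Dendritic cells carried class II RNA at levels of the same order as those of macrophages, with more Ciita. Ciita had 2.19, 3.34 and 2.58 UMIs per 10000 in the dendritic cells of fresh 10x 2, BD 1 and BD 2, against 0.995, 0.991 and 1.15 in the macrophages of the same libraries. All 3 dendritic values were above all macrophage values. Only BD 1 and BD 2 had the 10 dendritic cells asked for, so the dendritic sums tested come from them. The fit also held the macrophage and epithelial sums of all 5 libraries, with a library effect shared by the types. For H2-Aa, H2-Ab1 and Cd74 this effect differed between epithelial cells and macrophages, as given below. Fitted values can therefore differ from the ratios within BD 1 and BD 2. Ciita was the 1 member called, with a log2 fold change of 1.17 (SE 0.24, adjusted p = 0.0017 in edgeR). Of 11510 genes tested, 4.23% were called higher, 6.35% lower and 10.6% in either direction. The call was lost without BD 1 (0.52, adjusted p = 0.50) and with a gate limit of 5 in place of 10 UMIs per 10000 (0.63, adjusted p = 0.14).

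The DM genes had positive estimates that were not called. H2-DMb1 had 6.58, 3.74 and 4.04 UMIs per 10000 in dendritic cells against 5.33, 2.04 and 2.17 in macrophages of the same libraries. Its log2 fold change was 0.65 (SE 0.22, edgeR adjusted p = 0.063; 0.78 with adjusted p = 0.012 by DESeq2), and that of H2-DMa was 0.43 (SE 0.22, edgeR adjusted p = 0.26). The scale of this comparison matters for them: the median of all genes was -0.24, and without TMM scaling, an alternative added after the data were seen, it was 0.04. On that scale H2-DMa (0.71, adjusted p = 0.026), H2-DMb1 (0.95, adjusted p = 0.0047) and Ciita (1.45, adjusted p = 0.00014) were called by edgeR, and calls over all genes split into 725 higher and 518 lower in place of 487 and 731.

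The chains and Cd74 were not called in either direction, though Cd74 was in 2 alternatives, and the direction of the chains changed with the scaling. H2-Aa had 89.4, 187 and 137 UMIs per 10000 in dendritic cells of fresh 10x 2, BD 1 and BD 2, against 46.6, 118 and 142 in macrophages. It was thus higher in the dendritic cells of 2 of these libraries and about level in BD 2. The log2 fold change was -0.28 (SE 0.33) for H2-Aa, -0.10 (SE 0.29) for H2-Ab1 and -0.03 (SE 0.29) for H2-Eb1. Without TMM these were 0.02, 0.21 and 0.24. Log2 ratios of UMIs per 10000 within fresh 10x 2, BD 1 and BD 2 were 0.62, 0.72 and 0.11 for H2-Ab1. For H2-Eb1 they were 1.39, 0.32 and 0.31, on 23, 30 and 15 dendritic UMIs. Both genes were thus higher in the dendritic cells of each library, unlike the sign of the fit with TMM. Cd74 was at 331, 194 and 174 in dendritic cells against 222, 172 and 234, with a log2 fold change of -0.84 (SE 0.36, adjusted p = 0.17 in edgeR). Its log2 ratios within BD 1 and BD 2, 0.18 and -0.43, were both above this fitted value. Cd74 was called lower in dendritic cells by edgeR with no filter on low counts (-0.98, adjusted p = 0.0017) and with a gate limit of 5 (-1.17, adjusted p = 0.036).

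Other loading genes separated the types more clearly than the members did. H2-Oa and H2-Ob encode H2-DO, which restrains H2-DM. H2-Oa had 4.14, 0.761 and 0.773 UMIs per 10000 in dendritic cells of the 3 libraries and at most 0.128 in macrophages of any library, with a log2 fold change of 4.59 (SE 0.74, adjusted p = 0.00013 in edgeR). H2-Ob (1.76, SE 0.47) and H2-DMb2 (1.21, SE 0.29) were also called higher, but not without BD 1 (0.67 and 0.51). The call of H2-Ob was also lost at no more than 20% mitochondrial UMIs (1.45), with a gate limit of 5 (1.01) and with a wider dendritic gate (1.44). That of H2-DMb2 was lost with no replicate block (1.44). The proteases went the other way, with Ctsd (-7.11, SE 0.49), Lgmn (-5.63, SE 0.40), Ctsb (-3.41, SE 0.23) and Ctss (-2.88, SE 0.30) lower in dendritic cells. Ctsd, for example, had 0.0585 and 0.0859 UMIs per 10000 in the dendritic cells of BD 1 and BD 2 against 7.57 and 9.25 in their macrophages. That makes 3 higher and 4 lower of 8 loading genes tested, with a median of -1.99. Of 14 regulators Jak2 was higher (2.98) and Ifngr2 lower (-1.57), and of 8 turnover and costimulation genes Cd83 (-1.38) and March8 (-3.10) were lower. Cd83 had 5.03 and 3.95 UMIs per 10000 in dendritic cells of BD 1 and BD 2 against 9.66 and 10.7 in macrophages. In fresh 10x 2 Cd83 went the other way, at 3.90 in dendritic cells against 1.71 in macrophages. Its call was lost with no replicate block (-0.998, adjusted p = 0.42 in edgeR). The call was also lost with libraries of at least 5 dendritic cells (-0.936, adjusted p = 0.056 in edgeR). March8 lost its call without fresh 10x 1 (-3.09), without BD 1 (-11.43) and without BD 2 (-2.52), and Ctsd was at -1.38 (adjusted p = 0.11 in edgeR) with a wider dendritic gate.

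The dendritic gate mixed several kinds of cells. Cells with Xcr1 or Clec9a, markers of the cross-presenting kind, numbered 7, 8 and 10 in fresh 10x 2, BD 1 and BD 2. Ciita stood at 2.53, 3.93 and 3.45 UMIs per 10000 in these cells, and H2-Aa at 87.2, 188 and 162. In the 9 cells of BD 1 with Cd209a alone of these markers, Ciita was at 2.54 and H2-Aa at 164. The 4 cells of BD 2 with Ccr7 or Ccl22, markers of migrating dendritic cells, had no Ciita UMI, and H2-Aa was at 83.9. These are small pools of cells of single libraries, given without a test.

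Macrophages differed widely among themselves. The median cell had 431, 346, 426, 508 and 609 UMIs of the 7 genes per 10000 in library order. The 10th percentile was 9.92, 64.6, 15.2, 25.8 and 17.4, and the highest cell had 888, 998, 1702, 1334 and 1553. Cells under 50 per 10000 were 13.2%, 9.68%, 15.8%, 13.9% and 14.4% of the gate, so each library held a low fraction of similar size. Cells near the gate's limit, with C1q genes at 10 to 20 UMIs per 10000, numbered only 0, 0, 1, 4 and 3. In dendritic cells the medians were 488, 611 and 543 in fresh 10x 2, BD 1 and BD 2, inside the range of the macrophage cells.

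**Figure D4:**
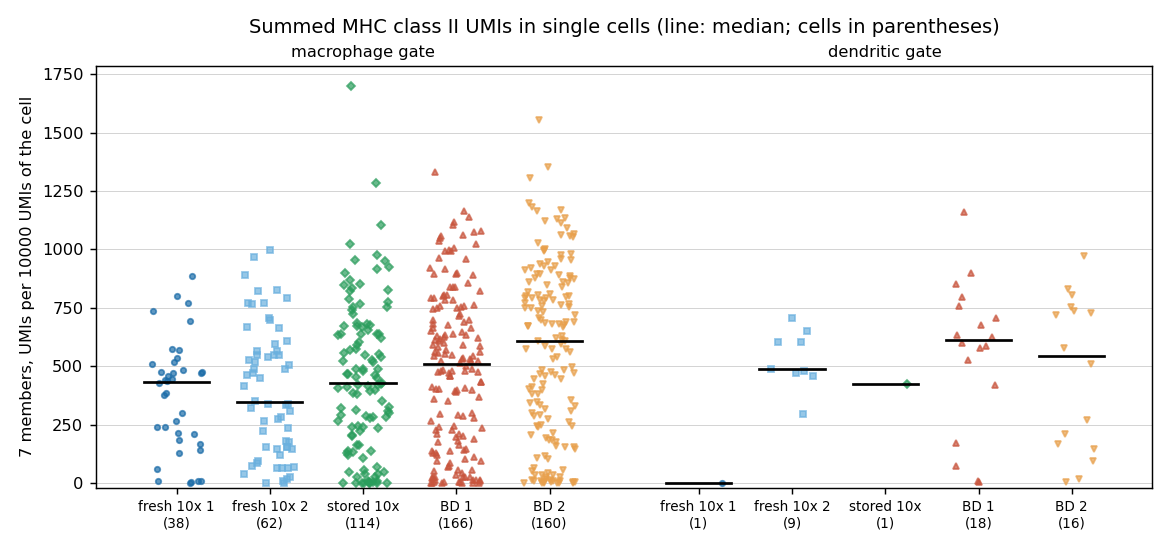
Summed UMIs of the 7 members per 10000 UMIs in each macrophage and dendritic cell, by library, with the median as a line and the number of cells in parentheses. Every macrophage library runs from near 0 to at least 888, and the dendritic cells lie within that range.

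The chains and the invariant chain went together from cell to cell. Across the macrophages of a library, Spearman's rho was 0.876 to 0.953 between H2-Aa and H2-Ab1 and 0.894 to 0.934 between H2-Aa and Cd74. H2-DMa and H2-DMb1 gave 0.355 to 0.531 with each other. Ciita, at about 1 UMI per 10000, gave 0.226 to 0.461 with H2-Aa and 0.0487 to 0.332 with H2-DMa. The points share their library and depth, and rarer genes have noisier values, so the order of these values is also an order of UMI counts. Among macrophage state genes, the members' sum was lower where Trem2 (rho -0.410 to -0.118), Spp1 (-0.268 to -0.174) and Folr2 (-0.393 to -0.0974) were higher, with the same sign in all 5 libraries. Trem2 and Spp1 mark lipid-associated tumour macrophages. Folr2 is a marker of tissue-resident macrophages. Among other genes high in such cells, Selenop was positive in 3 of 5 libraries (-0.486 to 0.0633). Mrc1 (-0.232 to 0.0285) and Pf4 (-0.218 to 0.0410) were positive in 1 of 5 each. Lyve1 (-0.202 to -0.144) and Cd163 (-0.156 to -0.112) were negative in stored 10x, BD 1 and BD 2. There Lyve1 had only 4, 4 and 9 UMIs and Cd163 2, 1 and 11, and both had 0 in fresh 10x. Cx3cr1 had a positive rho in all 5, 0.008 to 0.141, and Itgax in 4 of 5 (-0.0113 to 0.320). Of genes of recruited monocytes, Ccr2 was positive in 4 of 5 (-0.169 to 0.282) and Plac8 in 1 of 5 (-0.202 to 0.0472), while Ly6c2, with UMIs in 2 libraries, was at -0.0465 and -0.0431.

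Across 23 sums of a cell type in a library, 5 genes followed the mean of the members most closely among 14312 genes. They were C3ar1 (Pearson r = 0.990), Arl11 (0.988), Spi1 (0.988), Ly86 (0.987) and Havcr2 (0.986), on log2(CPM + 1) values. H2-Ab1 itself had 0.988 and H2-DMb1, the lowest member, 0.863. No dendritic sum had the 20 cells asked for, so these values mainly order macrophages against the other types.

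On fresh tissue, BD Rhapsody and 10x gave different class II profiles in macrophages. H2-Aa was at 118 UMIs per 10000 in BD 1 against 47.5 and 46.6 in fresh 10x, with a log2 fold change of 0.97 (SE 0.15, adjusted p = 8.4e-09 in edgeR). Cd74 was lower, at 172 against 207 and 222, with -0.68 (SE 0.13, edgeR adjusted p = 2.5e-06). H2-DMb1 fell by 1.47 (SE 0.28, edgeR adjusted p = 4.1e-06), from 3.33 and 5.33 to 2.04, and H2-DMa fell by 0.93 (SE 0.27, edgeR adjusted p = 0.0046), from 4.78 and 5.67 to 3.55. BD 1 was outside the fresh 10x range for each of these 4. The near-identical H2-DMb2 went the other way from H2-DMb1, at 1.45 in BD 1 against 0.897 and 0.766, on 308, 21 and 30 UMIs. Whether reads of the pair were split differently between the platforms was not tested. H2-Ab1 (0.32, SE 0.15), H2-Eb1 (0.18, SE 0.32) and Ciita (-0.11, SE 0.33) were not called. The 1 higher and 3 lower members stand beside 11.8% higher, 13.4% lower and 25.2% called of 7838 genes. BD 1 is 1 sample and was assumed to vary like the fresh 10x pair. The spread behind these SE and p-values is shared over genes by edgeR and is not that of a gene's own pair alone. H2-DMb1, for example, was at 3.33 and 5.33 in that pair, with an SE of 0.28.

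Several of these calls changed with the scaling. The median of all genes moved from 0.04 to 0.40 without TMM, and the calls split into 617 higher and 293 lower in place of 922 and 1051. On that scale H2-Aa was at 1.34 (edgeR adjusted p = 0.012), H2-Ab1 was called at 0.69 (adjusted p = 0.048), and Cd74 (-0.32), H2-DMa (-0.56) and H2-DMb1 (-1.10) kept their sign and lost their call. With DESeq2 only H2-DMb1 was called (adjusted p = 0.035).

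In epithelial cells of BD 1 the chains and Cd74 were all higher than in fresh 10x. H2-Aa had 0.117 UMIs per 10000 against 0.00966 and 0.0188, a log2 fold change of 2.87 (SE 0.32, adjusted p = 0.00094 in edgeR). H2-Ab1 had 0.111 against 0.0189 and 0.0344 (1.90, SE 0.31, edgeR adjusted p = 0.0038), and Cd74 0.156 against 0.0424 and 0.0622 (1.42, SE 0.22, edgeR adjusted p = 0.0029). H2-DMb1 was lower here too, at 0.0480 against 0.117 and 0.114 (-1.42, SE 0.19, edgeR adjusted p = 0.0019). H2-Eb1 (1.18, SE 0.53), H2-DMa (-0.69, SE 0.34) and Ciita (0.36, SE 0.43) were not called. The neighbour H2-DMb2 was at 0.0251 in epithelial cells of BD 1, between its fresh 10x values of 0.0399 and 0.00861. Beside 3 higher and 1 lower member, 21.1% of 15525 genes were higher, 20.4% lower and 41.5% called, and without TMM the calls of all genes split into 4223 higher and 2555 lower.

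Cd74 was therefore lower in the macrophages and higher in the epithelial cells of BD 1. The difference between the types was tested in a fit with the library as a block, added after these values had been seen. It was 1.97 (SE 0.27, edgeR adjusted p = 7.3e-09) for Cd74, 1.77 (SE 0.30, edgeR adjusted p = 6.5e-06) for H2-Aa and 1.46 (SE 0.29, edgeR adjusted p = 0.00024) for H2-Ab1, on the log2 scale, epithelial minus macrophage. The other members were not called, with H2-DMb1 at -0.11 (SE 0.28). Only 0.298% of 14779 genes were called higher, 0.487% lower and 0.785% in either direction. Several measures of other RNA moved with it: the 7 myeloid genes summed to 0.0927 UMIs per 10000 in epithelial cells of BD 1 against 0.0336 and 0.0423 in fresh 10x, and 6 epithelial genes outside the gate to 4.10 in macrophages of BD 1 against 1.45 and 1.79. BD 1 also held more macrophages (166 against 38 and 62), and mitochondrial UMIs were 16.1% of its epithelial UMIs against 6.93% and 8.04%. Their part in the result was not tested.

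**Figure D5:**
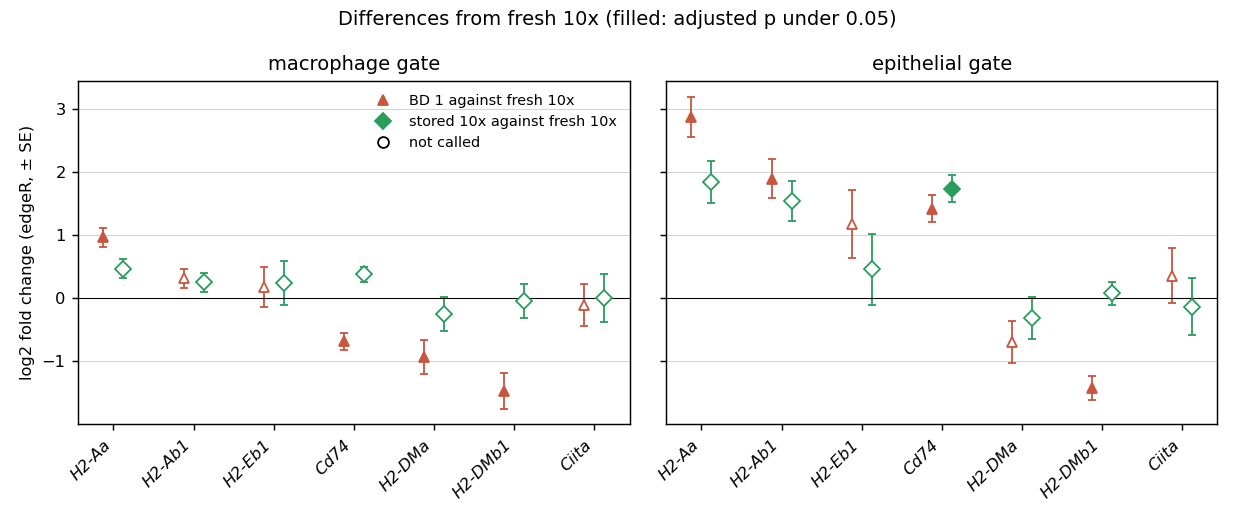
Log2 fold changes (edgeR, ± SE) of BD 1 and stored 10x against fresh 10x for the 7 members in macrophage and epithelial gates, filled where the adjusted p was under 0.05. H2-Aa is higher in BD 1 in both gates, Cd74 is lower in macrophages and higher in epithelial cells, and H2-DMb1 is lower in both. H2-DMb2, which may share reads with H2-DMb1 and was higher in BD 1 macrophages, is not drawn. The 2 comparisons share the fresh 10x samples.

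After storage of the digest on 10x, compared with the same fresh samples, no member was called in macrophages. H2-Aa had 66.2 UMIs per 10000 in stored 10x against 47.5 and 46.6 (0.47, SE 0.15, edgeR adjusted p = 0.12), and Cd74 had 284 against 207 and 222 (0.38, SE 0.12, edgeR adjusted p = 0.12). Both stored values were above both fresh values. Of 7838 genes 1.22% were called, 0.982% higher and 0.242% lower, and of the members 0 were called by edgeR, 2 had an unadjusted p under 0.05 and 0 were called by DESeq2. In the other lists Cd83 alone was called, at 7.46 UMIs per 10000 against 5.13 and 1.71 (1.16, SE 0.25, edgeR adjusted p = 0.00075).

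In epithelial cells Cd74 was the 1 member called after storage. It had 0.172 UMIs per 10000 against 0.0424 and 0.0622 in fresh 10x, a log2 fold change of 1.73 (SE 0.22, adjusted p = 0.024 in edgeR), where 1.15% of 15525 genes were called, 0.966% higher and 0.187% lower. H2-Aa, at 0.0508 against 0.00966 and 0.0188 (1.84, SE 0.33, edgeR adjusted p = 0.067), and H2-Ab1, at 0.0772 against 0.0189 and 0.0344 (1.54, SE 0.31, edgeR adjusted p = 0.087), were as far from fresh 10x without being called, although H2-Aa was called in 8 of its alternatives. H2-DMb1 stood at 0.121 against 0.117 and 0.114, a difference of 0.08 (SE 0.18). The difference between the types, again tested afterwards, was 1.23 (SE 0.27, edgeR adjusted p = 0.0045) for Cd74, 1.25 (SE 0.31, edgeR adjusted p = 0.022) for H2-Aa and 1.18 (SE 0.29, edgeR adjusted p = 0.021) for H2-Ab1, where 0.162% of 14779 genes were higher, 0.196% lower and 0.359% called. These 3 calls were lost with DESeq2 and with a gate limit of 20. The myeloid genes moved here as well, at 0.0880 UMIs per 10000 in stored epithelial cells, and the epithelial genes in macrophages were at 4.997. Stored 10x held 114 macrophages. Their part in the result was not tested.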

How the data were processed

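The authors deposited matrices of raw UMI counts per gene and cell; per the submitters' processing notes Cell Ranger 3.0.1 and the mm10 build were used, and the annotation is not given in the sources used here. Spellings of a symbol were merged. The 5 main matrices were used, and subsets and pooled matrices were left out. The members, gates and lists were chosen with earlier results of these data known. From the deposited counts, UMIs were summed per gate and library in Python 3.11.15 and tested with edgeR 4.0.16 (quasi-likelihood, TMM, filterByExpr, Benjamini-Hochberg over all genes tested, threshold 0.05). Gates were compared with the library as a block over libraries with at least 10 cells of a gate. Macrophage, dendritic and epithelial sums entered a common fit, and epithelial and fibroblast sums another. Library comparisons used all 5 libraries with the spread of the fresh 10x pair. Because a single pair says little about 1 gene, edgeR draws each gene's spread towards that of all genes. These p-values therefore do not measure the spread of the gene's own pair alone. A test on simulated data recovered 100% of 2-fold and 4-fold changes for macrophage against epithelial cells, 40% and 100% for dendritic against macrophage cells, 41% and 100% for BD 1 macrophages and 58% and 96% for BD 1 epithelial cells. The simulation used a dispersion of 0.02 and, before the changes, the same mean in every sum. It changed only genes expected at more than 5 UMIs in the smallest sum. The rates thus do not give the power for rarer genes or for a larger spread. Cells in more than 1 gate entered none. Scrublet (scanpy 1.11.5, exact neighbours, expected rate 6%) marked 0.0265% to 0.357% of cells a library and so did not work; the alternatives leave out those cells or the 6% with the highest scores. Alternatives, among them DESeq2 1.42.0, are below. The genes named are the members and, of 3 lists of the wider pathway, up to 4 of lowest p per list and direction, of which 1 is not reported here. Poisson and exact binomial intervals at 95% cover counting error only, and 0 UMIs allow up to 3 counts.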

Additional observations from a re-analysis of the deposited data

Results flagged for a closer look

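In BD 1 and BD 2 the dendritic to macrophage ratio of 2 members pointed in opposite directions. On the log2 scale of UMIs per 10000, H2-Aa was at 0.66 in BD 1 and -0.051 in BD 2, and Cd74 at 0.18 in BD 1 and -0.43 in BD 2. The difference between these libraries was not tested, and the pools hold 18 and 16 dendritic cells.

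The effect of the library differed between epithelial cells and macrophages by the edgeR test of the difference for 3 members. For BD 1 against fresh 10x, epithelial minus macrophage, the log2 values were 1.77 for H2-Aa, 1.46 for H2-Ab1 and 1.97 for Cd74. For stored 10x against fresh 10x they were 1.25 for H2-Aa, 1.18 for H2-Ab1 and 1.23 for Cd74. Both sets share the fresh 10x samples.

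Cells that met no gate carried class II RNA. The 7 genes summed to 17.9, 38.0, 19.4, 29.0 and 23.7 UMIs per 10000 in the unassigned cells of fresh 10x 1, fresh 10x 2, stored 10x, BD 1 and BD 2, above the at most 2.51 of T cells and below the 328 or more of macrophages. These cells held 11.1% to 16.2% of the members' UMIs. No group has 4 samples, so none was searched for a sample apart from the others.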

How the results depend on the processing

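No alternative changed the sign or the call of a member between macrophages and epithelial cells. For dendritic against macrophage cells the sign of small differences turned: H2-Aa was 0.022 without TMM, 0.58 with no replicate block and 0.070 with libraries of at least 5 dendritic cells, H2-Ab1 was 0.21, 0.40 and 0.060, and H2-Eb1 was 0.24, 0.075 and 0.27, with 0.081 by DESeq2. H2-DMb1 was -0.27 with no replicate block. Leaving out 1 library at a time, H2-Ab1 ran from -0.71 to 0.020, H2-Eb1 from -0.23 to 0.016 and H2-DMa from -0.32 to 0.65. The number of members called ran from 0 to 2 and that of genes called from 724 (without BD 1; 783 without BD 2) to 1225, in place of 1218. Members called were 2 by DESeq2, with no filter (Ciita higher and Cd74 lower) and without the top 6% of doublet scores, and 3 without TMM, in place of 1. For epithelial against fibroblast cells, Cd74 ran from -0.72 to 0.046 when 1 library was left out.

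In BD 1 macrophages the members called were 1 by DESeq2 and 2 without TMM in place of 4, and genes called were 276 and 910 in place of 1973. Ciita was 0.26 without TMM, 0.057 with no filter and 0.045 with BD 2 grouped with BD 1. In BD 1 epithelial cells DESeq2 called 3885 genes in place of 6437. For the difference between types, DESeq2 called 14 genes and the fit without TMM 222 in place of 116, and H2-DMb1 was 0.012 by DESeq2.

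In stored macrophages the genes called were 4 by DESeq2, 0 without TMM (434 with an unadjusted p under 0.05) and 55 with BD 2 grouped, in place of 96. H2-DMb1 was 0.065 with no filter and 0.027 at no more than 20% mitochondrial UMIs. Ciita, near 0, was -0.0020 with BD 2 grouped, -0.062 with at least 2000 UMIs per cell, -0.099 with the mitochondrial limit, -0.22 with a gate limit of 5 and -0.035 without the top 6%. In stored epithelial cells the members called were 3 with no filter and 2 by DESeq2, without TMM, with BD 2 grouped, with at least 2000 UMIs, with a gate limit of 5, without called doublets and without the top 6%, in place of 1. The genes called there were 275 without TMM, 1094 with no filter, 326 with BD 2 grouped, 282 with at least 2000 UMIs, 269 with the mitochondrial limit, 273 with a gate limit of 5 and 344 without called doublets, in place of 179. For its difference between types, members called were 0 by DESeq2 and 0 with a gate limit of 20 in place of 3, with 3 members at an unadjusted p under 0.05 by DESeq2. Genes called were 1 by DESeq2, 25 with the limit of 20 and 35 without the top 6% in place of 53. H2-DMb1 was 0.0036 by DESeq2, 0.066 without TMM, 0.070 with no filter, 0.092 with the limit of 20 and 0.0034 without the top 6%.

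The cause of these changes was not tested. No paired analysis was possible because the library groups compared share fewer than 2 replicate numbers; between cell types the library was the block, and the fits with no replicate block are those above. Without a fresh 10x replicate no spread was left, so those fits gave values and no test. Small gates limit precision: 34 dendritic cells stood behind the dendritic test, and 38 macrophages behind fresh 10x 1.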

Other observations

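Cells that met both the T cell and the macrophage gate entered no class. Fresh 10x 1 had 7 of them and fresh 10x 2 had 5, which held 16.4% and 6.34% of the members' UMIs of those libraries, while stored 10x and BD 2 had 1 such cell each and BD 1 had none. Epithelial cells with UMIs of 2 or more immune genes, also left out of the epithelial gate, numbered 8, 17, 53, 54 and 40 in library order and held 3.78%, 11.4%, 5.05%, 4.65% and 6.26% of the members' UMIs.

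In endothelial cells, from the 4 libraries with at least 40 of them, 6.25% (fresh 10x 1), 20.0% (fresh 10x 2), 23.9% (stored 10x) and 41.5% (BD 1) had a UMI of H2-Aa, H2-Ab1 or Cd74. Thinned to 2000 UMIs per cell the shares were 2.37%, 5.77%, 8.65% and 11.1%, the same order of libraries as in epithelial cells. The T cell shares given above have that order too, while the fibroblast shares, 5.57%, 3.06%, 5.54% and 7.32% in these libraries, do not.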
